A study of Mus musculus with 53 samples.

Results

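The genes examined here encode the machinery of fast inhibitory transmission by glycine and GABA: Glra1, Glra3 and Glrb (glycine receptor subunits), Slc6a5 and Slc6a9 (glycine transporters), Slc32a1 (the vesicular transporter of both transmitters), Gad1 and Gad2 (the enzymes that make GABA) and Gphn (gephyrin, the scaffold that holds both receptor types at the synapse). They were chosen by name from a table of 12372 genes, and 7 of the 9 had a row in it. Glra3 and Slc6a5 had none and were not analysed here. Every gene in the table exceeded 4 CPM, here counts scaled by the plain library total, in at least 14 of the 53 libraries, so genes restricted to a small part of a region could be missing from it. All levels below are CPM over library totals rescaled by TMM, a normalization for differences in RNA composition.

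RNA was sequenced from brainstem, cerebellum, cortex and striatum of untreated male C57BL/6 mice at 17.5 months of age (74 to 77 weeks in the labels). SCA3 mice were hemizygous MJD84.2 transgenics, in which full-length human ATXN3 with an expanded CAG repeat is driven ubiquitously by its own promoter, on top of the endogenous Atxn3. Wild-type mice lacked the transgene. All mice had been through balance beam and rotarod tests. There were 8 wild-type and 6 SCA3 libraries of brainstem, 7 and 6 of cerebellum, 7 and 6 of cortex, and 8 and 5 of striatum. The 14 mice gave 1 library for each region they are represented in, and the libraries held between 31.7 and 76.7 M counts. Libraries are named below by genotype and mouse number. The highest scores of thalamic markers were in striatum those of wild-type mice 7267058 and 7267059, and in brainstem those of wild-type mouse 7267055 and SCA3 mice 9083514 and 9083515. Values without these 2 striatal or 3 brainstem libraries are given beside several results below.

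The labelled regions were checked against markers. Genes of cerebellar granule and Purkinje cells summed to at least 6980 CPM in cerebellum and at most 2100 CPM elsewhere, and those of striatal projection neurons to at least 2760 CPM in striatum, with up to 4900 CPM in cortex. Within brainstem the cerebellar genes summed to 837 CPM in wild-type mouse 9083373 and 657 CPM in SCA3 mouse 7267054. The other brainstem libraries held at most 401 CPM of them. No gene of a list for hindbrain had a row, so the brainstem label could not be checked with it. No 2 libraries held identical counts.

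In the adult brain GABA is the main inhibitory transmitter of the forebrain and cerebellum, whereas glycine takes a large share of inhibition in brainstem and spinal cord. Glycine receptors that contain the alpha1 and beta subunits pass chloride and are anchored by gephyrin through the beta subunit. Gad1 encodes the form of glutamate decarboxylase called GAD67, which is active throughout the neuron, and Gad2 encodes GAD65, which is concentrated at nerve endings. Slc6a9 encodes GlyT1, found mainly on glia, which clears glycine around synapses and sets its level at NMDA receptors. Slc6a5 encodes the neuronal transporter that refills glycinergic terminals.

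The members with a row lie on 5 mouse chromosomes in the GENCODE annotation of GRCm38. Glra1 spans chr11:55514238-55608198 on the minus strand, Glrb chr3:80843599-80913660 on the minus strand, Slc6a9 chr4:117834506-117875198 on the plus strand, and Gphn chr12:78226379-78684772 on the plus strand. Slc32a1 (chr2:158610767-158615748), Gad1 (chr2:70553072-70602014) and Gad2 (chr2:22622205-22693874) all lie on the plus strand of chromosome 2. Reads were counted over exons without using strand. Exons of Slc6a9 share 1429 bases, 27.8% of its exon length, with Ccdc24 on the opposite strand, and those of Slc32a1 share 697 bases (24.9%) with the antisense gene Gm14205. Exons of Slc6a9 also share 511 bases (9.94%) with Gm17114 and 46 bases (0.895%) with B4galt2. These overlaps, and the exon lengths used below, are from GENCODE, whereas the study's methods state counting on a RefSeq annotation. How far the overlaps affected the counts of Slc6a9 and Slc32a1 was not tested.

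To see where each gene is used, levels were first compared among the regions of wild-type mice. Counts were fitted with edgeR over all libraries, and p-values of its likelihood ratio test were adjusted over all 12372 genes to a false discovery rate (FDR), with a gene called below 0.05. Most genes of the table were called between any pair of these regions other than cortex and striatum. Between brainstem and cerebellum 6 of the 7 members were called (72.6% of all genes), between brainstem and cortex 5 (65.4%), between brainstem and striatum 6 (64.2%), between cerebellum and cortex 4 (69.7%), between cerebellum and striatum 3 (69.5%), and between cortex and striatum 5 (34.4%). With so few members these shares do not set them apart from other genes, and the order of the regions for each gene is of more use.

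The glycine side was highest in brainstem. Glra1 averaged 109 ± 55.9 CPM (SD, n = 8) in wild-type brainstem, between 31.3 and 178 CPM. It averaged 7.22 ± 5.08 CPM in cerebellum (n = 7), 2.79 ± 2.56 CPM in striatum (n = 8) and 2.40 ± 2.54 CPM in cortex (n = 7). No cerebellar library reached the lowest brainstem value, and the fitted level in brainstem was 15.1-fold that of cerebellum (log2 difference 3.91, SE 0.73, FDR 1.95e-07), 39.0-fold that of striatum and 45.3-fold that of cortex. Cerebellum lay above striatum (log2 difference 1.37, SE 0.64, FDR 0.0463) with overlapping ranges, and the step from striatum to cortex did not pass the test (FDR 0.825), and its sign turned without the 2 striatal libraries named above (log2 cortex over striatum 0.52, FDR 0.59). Without the same 2 libraries, brainstem over striatum was 6.03 and cerebellum over striatum 2.11 (log2, FDR 0.0049), from 5.28 and 1.37, and without wild-type mouse 7267055 brainstem over cortex was 6.19, from 5.50. The call of cerebellum over striatum was lost without any 1 of wild-type mice 7267055, 9082857, 9083371, 9083372, 9083373 and 9083375 (log2 1.13 to 1.38, FDR 0.061 to 0.13). Single libraries of cortex and striatum held as few as 8 counts of Glra1.

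Glrb, the subunit that tethers the receptor to gephyrin, was abundant everywhere. Its mean was 366 ± 39.3 CPM (SD, n = 8) in wild-type brainstem and between 208 and 227 CPM in the other regions. Brainstem exceeded cerebellum 1.62-fold (log2 difference 0.69, SE 0.12, FDR 5.47e-09) with no overlap of the ranges, 314 to 426 against 206 to 271 CPM. The steps from cerebellum to cortex and from cortex to striatum did not pass the test (FDR 0.943 and 0.482). Per kilobase of exon, wild-type Glrb stood at 78.6 and Glra1 at 45.2 CPM in brainstem, and at 48.3 and 0.997 CPM in cortex. Without those 2 wild-type striatal libraries, striatal Glrb fell below cerebellum (FDR 0.016) and cortex (FDR 0.041).

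Slc6a9 followed the same order at its upper end. It averaged 225 ± 36.5 CPM (SD, n = 8) in wild-type brainstem and 108 ± 7.69 CPM in cerebellum (n = 7), a 2.07-fold difference (log2 1.05, SE 0.13, FDR 2.32e-14) without overlap. Striatum followed at 93.4 ± 31.8 CPM (n = 8), with no call against cerebellum (FDR 0.135), and cortex was lowest at 62.7 ± 13.2 CPM (n = 7; striatum against cortex, log2 0.58, SE 0.13, FDR 0.000156). Without the same 2 striatal libraries, striatum fell below cerebellum (log2 cerebellum over striatum 0.48, FDR 5e-05) and its lead over cortex shrank to 0.32 (FDR 0.018). The cerebellar lead over striatum also passed the test without wild-type mouse 7267058 (0.27, FDR 0.049) or 7267059 (0.37, FDR 0.004) alone, and with limma-voom and the mouse as replicate block (0.28, FDR 0.04).

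**Figure D1:**
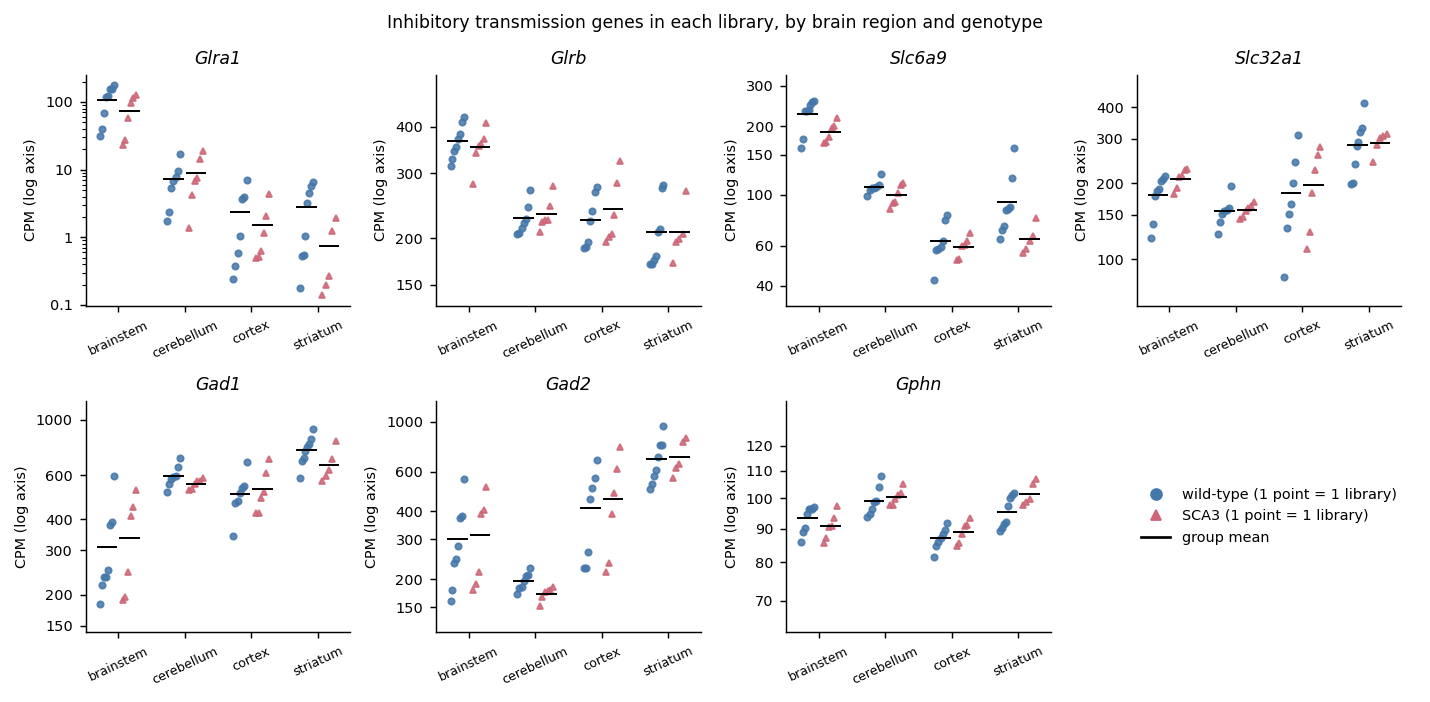
Level of each of the 7 genes in CPM (log axis, scaled separately for each gene) in every library, by region. Circles are wild-type and triangles SCA3 libraries, and bars are group means. Glra1, Glrb and Slc6a9 are highest in brainstem, Slc32a1 and Gad2 in striatum, and Gphn stays between 81.6 and 108 CPM in every library, while the genotypes overlap for all 7 genes in all 4 regions.

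The GABA side had another order. Slc32a1 was highest in striatum, where it averaged 284 ± 72.5 CPM (SD, n = 8) in wild-type mice. It averaged 184 ± 74.3 CPM in cortex (n = 7), 180 ± 33.4 CPM in brainstem (n = 8) and 155 ± 21.5 CPM in cerebellum (n = 7). Striatum exceeded cortex 1.55-fold (log2 0.63, SE 0.18, FDR 0.00248), and the steps below it did not pass the test (FDR 0.897 and 0.266). Most striatal neurons are GABAergic projection neurons, and in glycinergic neurons the same transporter loads glycine.

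Gad1 averaged 756 ± 101 CPM in wild-type striatum (SD, n = 8), 598 ± 61.9 CPM in cerebellum (n = 7), 505 ± 102 CPM in cortex (n = 7) and 310 ± 137 CPM in brainstem (n = 8). The first 3 formed a gradient whose adjacent steps did not pass the test (FDR 0.0921 and 0.252; the first passed without wild-type mouse 9083371, FDR 0.043), and cortex exceeded brainstem 1.63-fold (log2 0.70, SE 0.18, FDR 0.000332). Gad2 averaged 682 ± 157, 416 ± 181, 301 ± 131 and 196 ± 18.2 CPM in striatum, cortex, brainstem and cerebellum. Striatum exceeded cortex (log2 0.71, SE 0.25, FDR 0.0176), the step from cortex to brainstem did not pass (FDR 0.0875), and brainstem exceeded cerebellum (log2 0.62, SE 0.25, FDR 0.0202). That last step was lost without the 3 brainstem libraries named above (log2 0.43, FDR 0.09), with limma-voom without a replicate block (0.51, FDR 0.057), and without wild-type mouse 7267055 (FDR 0.094), 9083373 (FDR 0.059) or 9083375 (FDR 0.074). The step from cortex to brainstem passed without the 3 libraries (log2 brainstem over cortex -0.65, FDR 0.011) and without mouse 7267055 (-0.57, FDR 0.042) or 9083373 (-0.63, FDR 0.03). That from striatum to cortex was lost without mouse 7267058 (FDR 0.068), 9082857 (FDR 0.081) or 9083373 (FDR 0.094).

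Cerebellum was thus among the higher regions for Gad1 and the lowest for Gad2. The ratio of Gad1 to Gad2, each per kilobase of exon, lay between 1.90 and 2.94 in the 7 wild-type cerebella and between 2.31 and 2.68 in the 6 SCA3 cerebella. Elsewhere it lay between 0.688 and 0.943 in brainstem, between 0.655 and 1.13 in striatum and between 0.692 and 1.74 in cortex, both genotypes included. No library of another region reached the lowest cerebellar value. Within wild-type mice the log2 ratio was higher in cerebellum by 1.55 against brainstem (7 of 7 mice), by 1.47 against striatum (7 of 7) and by 1.24 against cortex (6 of 6). The exact two-sided sign permutation p-values were 0.0156, 0.0156 and 0.0312, the smallest that these numbers of mice allow, and 0.0234, 0.0234 and 0.0312 after adjustment over the 3 comparisons. This ratio was chosen after its values had been seen. Between genotypes it differed by 0.04, 0.08, -0.04 and -0.25 (log2, SCA3 minus wild-type) in brainstem, cerebellum, cortex and striatum. None of these 4 differences passed an exact permutation test (adjusted p = 0.695, 0.695, 0.886 and 0.252).

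**Figure D2:**
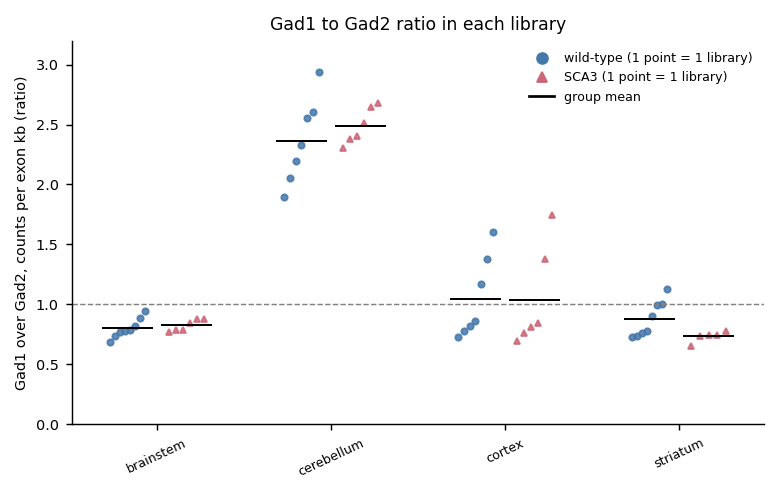
Ratio of Gad1 to Gad2 counts, each divided by exon length in kilobases, in every library, by region. Circles are wild-type and triangles SCA3 libraries, bars are group means, and the dashed line marks equal values on GENCODE exon lengths. All 13 cerebellar libraries lie at 1.90 or above and all other libraries at 1.74 or below.

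Gphn varied little between regions. Its wild-type means were 99.3 ± 5.34 CPM in cerebellum (SD, n = 7), 95.4 ± 5.22 CPM in striatum (n = 8), 93.2 ± 4.21 CPM in brainstem (n = 8) and 87.0 ± 3.34 CPM in cortex (n = 7). Cerebellum exceeded cortex (log2 0.19, SE 0.04, FDR 1.67e-05), with an FDR of at most 0.00077 in every alternative run, and striatum exceeded cortex (log2 cortex over striatum -0.13, SE 0.04, FDR 0.00624), with at most 0.018. Cerebellum also exceeded brainstem (log2 brainstem over cerebellum -0.09, SE 0.04, FDR 0.0371), but not without wild-type mouse 7267059 (FDR 0.081), 9083372 (FDR 0.11) or 9083375 (FDR 0.20), nor in wild-type libraries alone with the mouse as a fixed replicate block (FDR 0.096). Of the adjacent steps the lowest passed the test (brainstem over cortex, log2 0.10, SE 0.04, FDR 0.0258), and it was lost without wild-type mouse 7267058 (FDR 0.11), 9083371 (FDR 0.052) or 9083372 (FDR 0.076). Its coefficient of variation within groups was 2.96% to 5.48%, against 4.45% to 48.4% for the GABA enzymes. Gephyrin also takes part in making the molybdenum cofactor and is used by every cell type.

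Members also varied among libraries of the same region, and in brainstem and cortex the levels of some of them were compared with markers of neighbouring tissue. In brainstem, a thalamic marker score (the mean log2 CPM of 9 genes such as Tcf7l2, Lef1 and Prkcd) ranged from 3.86 to 5.66. The 5 libraries with the highest scores, between 4.50 and 5.66, were 3 SCA3 and 2 wild-type. They held 22.9 to 57.8 CPM of Glra1, against 68.1 to 178 CPM in the other 9. They held 161 to 180 CPM of Slc6a9 against 196 to 259, whereas Gad1 was at 390 to 594 CPM against 184 to 378 and Gad2 at 380 to 556 CPM against 159 to 373. For these 4 genes the 2 sets of libraries did not overlap. For Slc32a1, Glrb and Gphn they did. Genes of mature oligodendrocytes summed to 9700 to 11600 CPM in the 5 libraries and 13500 to 22000 CPM in the other 9. Astrocyte genes summed to 4210 to 5560 and 5040 to 9690 CPM, which overlapped. This split of the libraries was made after the values had been seen, and it was not tested.

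Gad1 and Gad2 moved together across libraries. Their log2 CPM, after subtraction of each group's mean, correlated with r = 0.83 over 53 libraries, and those of Gad2 and Slc32a1 with r = 0.59. Slc6a9 and Glra1 correlated with r = 0.62, and Slc6a9 with Gad1 or Gad2 with r = -0.03 and -0.01. These libraries share mice and dissections, so the coefficients describe them and carry no p-value.

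In cortex the score of striatal projection neurons (the mean log2 CPM of 12 genes such as Drd1, Penk and Ppp1r1b) ranged from 5.64 to 8.27. Slc32a1 rose with it from 85.3 CPM in the library with the lowest score to between 201 and 310 CPM in the 5 libraries at 7.65 and above. The correlation of log2 CPM with the score was r = 0.82 over 13 libraries (permutation p = 0.00055, 0.0038 after adjustment over the 7 members) with Spearman's rho = 0.77 (p = 0.0028, adjusted 0.02). It was 0.83 in the 7 wild-type and 0.83 in the 6 SCA3 libraries, and 0.70 without the 2 libraries farthest from the median score. Glrb had r = -0.59 (adjusted permutation p = 0.055) and rho = -0.71 (adjusted p = 0.029), with r = -0.30 in wild-type and -0.87 in SCA3 libraries and -0.61 without the 2 outermost libraries. Gad1, Gad2 and Slc6a9 had r between 0.57 and 0.62 (each adjusted p = 0.055), which fell to 0.44, 0.36 and 0.39 without the 2 outermost libraries, and Glra1 and Gphn 0.24 and 0.26 (adjusted 0.43). A score of cortical glutamatergic neurons (mean log2 CPM of 5 genes) was also set beside Gad2 and Slc32a1. Cortical libraries at 5.52 to 6.5 held 509 to 777 CPM of Gad2 and 151 to 310 CPM of Slc32a1. Those at 7.61 to 7.89 held 215 to 264 and 85.3 to 165 CPM, and those between held 389 to 485 and 183 to 226 CPM. Both relations were examined after the values had been seen, and that to the glutamatergic score was not tested. In such bulk samples, a change in the share of a cell type and a change in RNA per cell cannot be told apart.

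**Figure D3:**
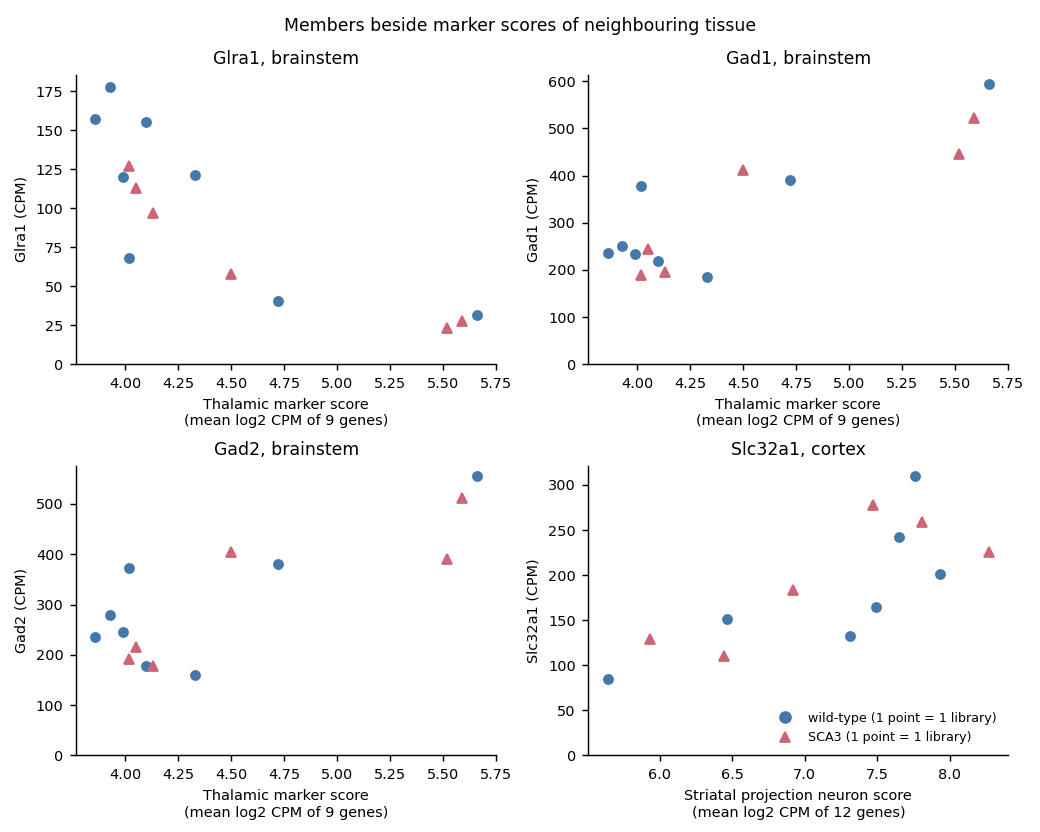
Level in CPM of Glra1, Gad1 and Gad2 in the 14 brainstem libraries against the thalamic marker score, and of Slc32a1 in the 13 cortical libraries against the score of striatal projection neurons (scores are mean log2 CPM). Circles are wild-type and triangles SCA3 libraries. In brainstem Glra1 is at 57.8 CPM or below, and Gad1 and Gad2 at 380 or above, in the 5 libraries with scores of 4.50 or more. In cortex Slc32a1 rises with the score in both genotypes.

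SCA3 was then compared with wild-type within each region, to ask whether the transgene changed any of these genes. In brainstem 0 of the 7 members were called (1.92% of all genes, 238 of 12372), in cerebellum 0 (0.0647%, 8 genes), in cortex 0 (0.154%, 19 genes) and in striatum 1, which was lower in SCA3 (7.54%, 933 genes). By edgeR's unadjusted p below 0.05 the members numbered 0, 0, 0 and 3, beside 1640, 205, 503 and 2874 of all 12372 genes. The quasi-likelihood F test, DESeq2 and limma-voom also called 0, 0, 0 and 1. Members other than Glra1 had at least 1410 counts in every library.

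In brainstem, where glycinergic inhibition is strongest, the mean of Glra1 was 74.2 ± 44.5 CPM in SCA3 (SD, n = 6) against 109 ± 55.9 CPM (n = 8). The 6 SCA3 libraries held 113, 57.8, 127, 96.8, 22.9 and 27.7 CPM, all below the wild-type maximum of 178 CPM and 4 of them within the wild-type range. The log2 fold change of Glra1 was -0.55 with a 95% interval from -1.86 to 0.76 (FDR 0.789). The lowest libraries, SCA3 mice 9083514 and 9083515 and wild-type mouse 7267055, were the 3 with the highest thalamic scores, and without them the change was -0.28 (FDR 1).

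The other brainstem members were bounded more closely. Glrb had a log2 fold change of -0.06 (95% interval -0.29 to 0.18), Slc6a9 of -0.25 (-0.52 to 0.02, FDR 0.424), Slc32a1 of 0.21 (-0.15 to 0.57), Gad1 of 0.11 (-0.27 to 0.49), Gad2 of 0.07 (-0.44 to 0.57) and Gphn of -0.04 (-0.12 to 0.05). Without the same 3 libraries the small differences of Gad1 and Gad2 turned sign, to -0.05 and -0.10 (FDR of each 1). Slc6a9 held 169 to 217 CPM in the 6 SCA3 libraries and 161 to 259 CPM in the 8 wild-type libraries, where 6 exceeded the SCA3 maximum. Slc32a1 held 182 to 227 CPM against 122 to 214 CPM. RNA integrity numbers were 7.4 to 8 in SCA3 and 6.3 to 7.6 in wild-type brainstem, and with this number as a covariate 0 members were called as well.

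In cerebellum, the intervals of 6 members were narrower than that of Glra1. Gad1 held 525 to 585 CPM in SCA3 and 513 to 702 CPM in wild-type mice, a change of -0.11 (95% interval -0.50 to 0.28). Gad2 held 151 to 184 CPM against 171 to 224 CPM, a change of -0.19 (-0.72 to 0.34), and its exact two-sided permutation test on log2 CPM gave an unadjusted p = 0.021. Of these tests of 7 members in 4 regions, the only other one below 0.05 was that of Slc6a9 in striatum (exact permutation p = 0.0334). Slc6a9 had a log2 fold change of -0.12 (-0.40 to 0.16), Slc32a1 of 0.01 (-0.36 to 0.38), Glrb of 0.04 (-0.20 to 0.28) and Gphn of 0.02 (-0.07 to 0.11). Glra1 spread from 1.39 to 18.7 CPM in SCA3 and from 1.74 to 16.8 CPM in wild-type cerebella, and its interval ran from -1.04 to 1.63. The FDR of all 7 was 1.

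In cortex, Gad2 held 215 to 777 CPM in SCA3 and 223 to 676 CPM in wild-type libraries, and had a log2 fold change of 0.12 (95% interval -0.40 to 0.65). Gad1 had a log2 fold change of 0.06 (-0.33 to 0.45), Slc32a1 of 0.10 (-0.27 to 0.48), Glrb of 0.09 (-0.15 to 0.33), Slc6a9 of -0.08 (-0.36 to 0.20) and Gphn of 0.03 (-0.05 to 0.12). Glra1, at 0.241 to 6.97 CPM, could not be bounded better than -2.00 to 0.71. The FDR of all 7 was again 1.

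**Figure D4:**
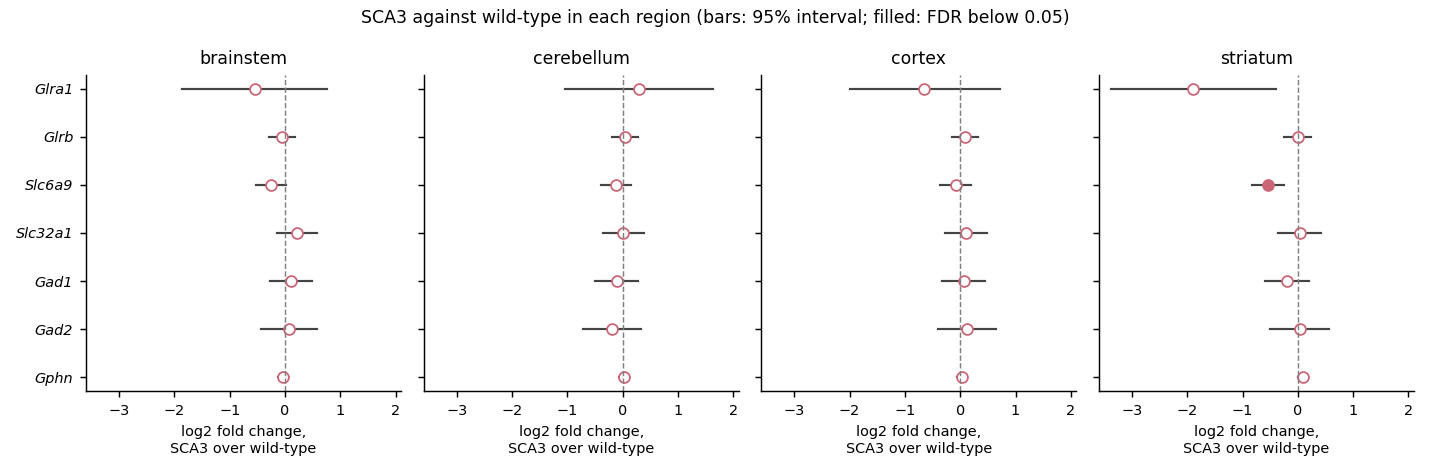
Log2 fold change of SCA3 over wild-type for the 7 genes in each region, with bars for the 95% interval from the edgeR fit. Filled points have an FDR below 0.05. The only filled point is Slc6a9 in striatum at -0.54, and the widest bars are those of Glra1.

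The member called in striatum was Slc6a9. The SCA3 libraries of mice 7267054, 7267056, 9082853, 9083514 and 9083515 held 63.1, 57.8, 79.1, 55.8 and 65.9 CPM. The 8 wild-type libraries held between 63.9 and 160 CPM, with a median of 86.2. All SCA3 values lay below the wild-type median, and the groups overlapped between 63.9 and 79.1 CPM. The log2 fold change was -0.54 (SE 0.15, 95% interval -0.83 to -0.25), a level 0.689 times that of wild-type, with an FDR of 0.00961. Its test of an effect in any region gave an FDR of 0.0364, where 1 member was called (4.73% of all genes). That call was lost by the quasi-likelihood F test (FDR 0.079), by limma-voom without (0.12) and with the mouse as replicate block (0.21), with the RNA integrity number as a covariate (0.051) and without the 2 striatal libraries (0.18). The test of whether the effect depended on region called 0 members (0.218% of all genes, edgeR unadjusted p below 0.05 for 0) and gave Slc6a9 an FDR of 0.686, so that a striatal effect different from that of the other regions was not shown.

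The wild-type striatal libraries stood apart in a way that moved with this gene. Those of mice 7267058 and 7267059 had thalamic scores of 6.81 and 7.47, against 3.10 to 4.79 in the other 11 striatal libraries, and they held 119 and 160 CPM of Slc6a9, the highest values. The other 6 wild-type libraries held 63.9 to 88.3 CPM. Of the thalamic markers in the table, 6 of 9 were called lower in SCA3 striatum, with a median log2 change of -1.56, and their summed level was 110 to 311 CPM in SCA3 and 111 to 2270 CPM in wild-type libraries. Without those 2 libraries Slc6a9 had a log2 fold change of -0.28 (SE 0.12, FDR 0.24), and with the thalamic score as a covariate in the striatal libraries alone of -0.25 (SE 0.11, FDR 0.35). Fitting the striatal libraries alone without the score kept -0.54 but not the call (SE 0.21, FDR 0.21).

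Mouse numbers fall into 3 series by their leading digits. The largest, that of mouse 9083514, gave a striatal change of -0.42 (SE 0.18, FDR 0.40), with 55.8 and 65.9 CPM in SCA3 against 85.7, 88.3, 86.7 and 63.9 CPM in wild-type libraries. All SCA3 mice of that series were 74 weeks old and all its wild-type mice were older, so genotype and age cannot be told apart there. In the series of mouse 7267054, the SCA3 libraries held 63.1 and 57.8 CPM and the wild-type libraries 70.3, 119 and 160 CPM. The remaining pair of mice, 9082853 and 9082857, held 79.1 CPM in SCA3 and 73 CPM in wild-type striatum, too few to test alone. The call was also lost without SCA3 mouse 7267056 (-0.50, FDR 0.064) and without wild-type mouse 7267059 (-0.38, FDR 0.069), and with libraries of an RNA integrity number of at least 7 (-0.52, FDR 0.072).

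Markers of other cell types moved in striatum too. Of 12 astrocyte genes 5 were lower in SCA3 (median log2 change -0.34), as were 5 of 12 genes of mature oligodendrocytes (-0.44). The summed level of the astrocyte genes was 4730 to 5300 CPM in SCA3 and 4660 to 6690 CPM in wild-type libraries, and that of the oligodendrocyte genes 6260 to 9530 and 6760 to 19600 CPM. The 12 genes of striatal projection neurons were all higher in SCA3 with none called (median 0.50), their sums being 7250 to 10800 and 2760 to 11700 CPM. With the score of striatal projection neurons as a covariate, Slc6a9 had a log2 fold change of -0.26 (SE 0.18, FDR 1). Genes of cortical glutamatergic neurons summed to 977 CPM in SCA3 mouse 9083514 and 988 CPM in wild-type mouse 9083375. The other striatal libraries held at most 333 CPM of them. Striatal Slc6a9 was lowest within each genotype in these same 2 mice, at 55.8 and 63.9 CPM. None of the listed markers was at 0 in any striatal library. The part of each of these in the change of Slc6a9 was not tested beyond the fits given.

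**Figure D5:**
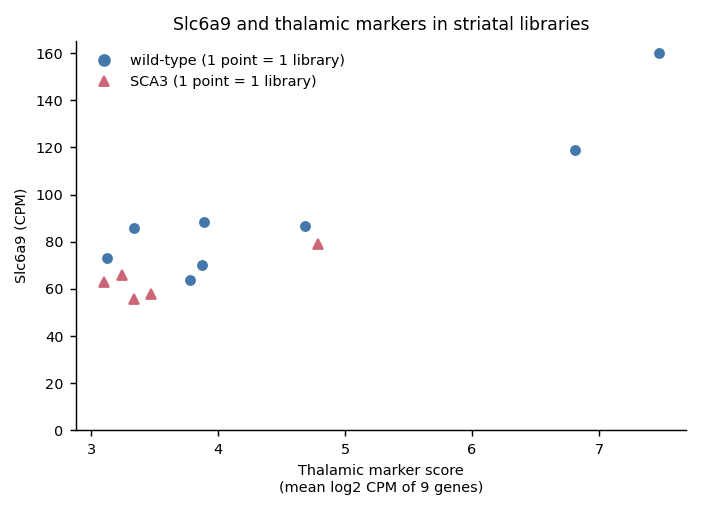
Slc6a9 in CPM against the thalamic marker score (mean log2 CPM of 9 genes) in the 13 striatal libraries. Circles are wild-type and triangles SCA3 libraries. The 2 wild-type libraries at scores of 6.81 and 7.47 have the highest Slc6a9, 119 and 160 CPM, and below a score of 5 the SCA3 libraries (55.8 to 79.1 CPM) and wild-type libraries (63.9 to 88.3 CPM) overlap.

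The genes whose deviations from the group means were most like those of Slc6a9 over the 53 libraries were Nacc2 (r = 0.89), Tmcc3 (r = 0.85) and Cers2 (r = 0.85). Over the 51 libraries left without the same 2 striatal ones, these coefficients were 0.83, 0.80 and 0.79.

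The other striatal members were not called. Glra1 held 0.139 to 1.90 CPM in the 5 SCA3 and 0.180 to 6.58 CPM in the 8 wild-type libraries, from as few as 8 counts, and had a log2 fold change of -1.89 (SE 0.76, FDR 0.0986). The wild-type libraries of mice 7267058 and 7267059 again had the highest values, 5.75 and 6.58 CPM, and without them the change was -1.15 (FDR 0.50). In the striatal libraries alone it was -0.82 with the thalamic score (FDR 0.71) and -0.13 with the score of striatal projection neurons (FDR 1) as a covariate, and -3.34 in the largest series of mouse numbers (FDR 0.24). Without SCA3 mouse 9082853 it was -2.58 and passed the test (FDR 0.038). Gphn was at 97.6 to 107 CPM in SCA3 against 89.2 to 102 CPM and had a log2 fold change of 0.09 (SE 0.04, FDR 0.20). Gad1 had a log2 fold change of -0.19 (95% interval -0.60 to 0.21), Gad2 of 0.04 (-0.50 to 0.57), Slc32a1 of 0.03 (-0.35 to 0.41) and Glrb of 0.00 (-0.25 to 0.24). Without the same 2 wild-type libraries these 4 changes were -0.15, -0.02, -0.11 and 0.16 (FDR 0.57 to 0.98).

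The wider pathway was read from 79 further genes in 5 lists, of which 59 had a row. They cover glycine handling, GABA transport and breakdown, GABA receptor subunits, the inhibitory postsynaptic scaffold with chloride transport, and transcription factors of inhibitory neurons. None was called in cerebellum or cortex. In brainstem 0 rose and 2 fell (3.39%, beside 1.92% of all genes), and in striatum 2 rose and 6 fell (13.6%, beside 7.54%). The median log2 change was 0.01 in brainstem and 0 in striatum, against 0.0028 and -0.0031 over all genes.

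Among genes of GABA and glutamine handling, Glul, the glutamine synthetase of astrocytes that feeds the supply of GABA, fell in both regions. In brainstem, SCA3 libraries averaged 1210 ± 120 CPM (SD, n = 6) and those of wild-type mice 1870 ± 199 CPM (n = 8), with ranges of 1100 to 1400 and 1590 to 2210 CPM that did not overlap (log2 -0.63, SE 0.10, FDR 9.73e-08). In striatum the means were 1200 ± 62.3 CPM (n = 5) and 1640 ± 275 CPM (n = 8; log2 -0.45, SE 0.10, FDR 0.00164). Both calls held without the libraries with the highest thalamic scores (-0.61, FDR 6.23e-05 and -0.35, FDR 0.0369). Of 12 astrocyte markers 4 were called lower in brainstem (median -0.37), where their summed level was 4210 to 6080 CPM in SCA3 and 4610 to 9690 CPM in wild-type libraries. Of 12 genes of mature oligodendrocytes 3 were called lower in brainstem (median -0.41), with sums of 9700 to 16300 and 10600 to 22000 CPM. Slc6a11, the GABA transporter GAT-3 of astrocytes, fell in striatum from 329 ± 158 to 152 ± 53 CPM (log2 -1.12, SE 0.35, FDR 0.027), but the call was lost without the 2 striatal libraries (-0.85, FDR 0.207).

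On the glycine side, Slc7a10, the Asc-1 transporter that exchanges glycine and D-serine, fell in striatum from 34.4 ± 6.47 CPM (n = 8) to 25.1 ± 2.77 CPM (n = 5; log2 -0.45, SE 0.12, FDR 0.00853), with -0.39 (SE 0.12, FDR 0.0524) without the 2 libraries. In the scaffold list, Iqsec3, a gephyrin-binding exchange factor, fell from 204 ± 48.2 to 141 ± 27.2 CPM (log2 -0.54, SE 0.13, FDR 0.00292) and stayed called without them (-0.52, FDR 0.0136).

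Of the 17 receptor genes with a row, Gabrb1, the beta1 subunit of the GABA-A receptor, fell in brainstem from 14.8 ± 2.65 CPM (n = 8) to 8.81 ± 2.82 CPM (n = 6; log2 -0.75, SE 0.20, FDR 0.0121). Without the 3 brainstem libraries with the highest thalamic scores it had a log2 fold change of -0.59 (FDR 0.401). Kctd8, an auxiliary subunit of GABA-B receptors, rose in striatum from 19.9 ± 6.16 to 28.8 ± 4.03 CPM (log2 0.54, SE 0.14, FDR 0.00853), with 0.39 and an FDR of 0.109 without the 2 striatal libraries. Over the 59 genes, without these libraries 0 rose and 2 fell in striatum (3.39%, beside 2.34% of all genes), and 0 rose and 1 fell in brainstem (1.69%, beside 0.736%). Of the 14 transcription factors 2 had a row, and neither was called in any region.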

How the data were processed

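The authors deposited raw counts of reads for each gene, in whole numbers. Per the labels and the study's methods, poly-A selected libraries without strand information were sequenced as paired reads, trimmed (cutadapt 1.10), aligned to GRCm38 with STAR 2.3.0e and counted with HTSeq 0.6.1, and genes averaging under 4 CPM were removed by the authors. As in the study, all 53 libraries entered 1 edgeR fit (version 4.0.16 in R 4.3.3, TMM, 8 groups of region and genotype), tested by likelihood ratio and adjusted by the Benjamini-Hochberg method over 12372 genes. CPM were taken over TMM-scaled totals, and log2 CPM with 2 as prior count. Exon lengths and overlaps came from GENCODE vM21. Each library is from 1 mouse, and 14 mice gave the 53 libraries. The main fit treated these libraries as independent, with 1 dispersion per gene over all 4 regions. Its p-values therefore reflect a spread between libraries pooled over regions, not that between the mice of a single region. The mouse pairs libraries across regions by label; over 6 pairs of regions, the mean r between libraries of the same mouse, as deviations from group means, was 0.0904 to 0.186. Genotype does not vary within a mouse. The fit was tested on simulated data. The named genes were all members, companion genes called in a region (up to 4 with the smallest FDR in each direction), and the 3 genes most like each called member. A companion gene that counts among those called is not reported here by name. Alternatives were DESeq2 1.42.0, the quasi-likelihood F test of edgeR, limma-voom (limma 3.58.1) with and without a mouse block, RLE, a minimum of 10 counts, RNA integrity number (RIN), region-wise fits, marker scores and left-out mice. Fits without chosen libraries or with the striatal score were added after seeing the data. The members and lists were chosen with earlier results of these data known.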

Additional observations from a re-analysis of the deposited data

How the results depend on the processing

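In brainstem, cerebellum and cortex 0 members were called under every alternative run. In striatum the call of Slc6a9 was lost, leaving 0 members, when RIN was required to reach 7, in the region alone, in the region alone with the thalamic or the striatal projection neuron score, in the largest series of mouse numbers alone, and without the 2 striatal libraries high in thalamic markers. Leaving out each mouse gave 0 to 2 members, and 2 without SCA3 mouse 9082853, where Glra1 was called as well (-2.58, FDR 0.038). The change of Slc6a9 lay between -0.62 and -0.25 in all of these fits. For an effect in any region, 0 members were called by the quasi-likelihood F test (FDR of Slc6a9 0.079), limma-voom without a replicate block (0.12) and with the mouse as replicate block (0.21), RIN as a covariate (0.051) and without the 2 striatal libraries (0.18), and 0 to 1 on leaving out each mouse (0 without each of mice 7267054, 7267056, 7267058, 7267059, 9083372, 9083514 and 9083515, with FDR 0.064 to 0.18). Dependence on region gave 0 members in every fit, the mouse as a fixed replicate block included. With the mouse as replicate block (limma-voom), no member's call between genotypes within a region changed. Between wild-type regions, it added Slc6a9 for cerebellum against striatum (FDR 0.04), and a fixed mouse block lost Gphn for brainstem against cerebellum (FDR 0.096). Between wild-type cerebellum and striatum 5 members were called without the 2 striatal libraries, in place of 3 (69.8% of all genes, in place of 69.5%). Over all genes the striatal count of 933 ranged from 30 (the largest mouse number series alone) to 1162 (DESeq2), and on leaving out each mouse from 297 (mouse 9083515 left out) to 1833 (mouse 9082857 left out). The brainstem count of 238 ranged from 91 to 657, that of cerebellum (8) from 5 to 67 and that of cortex (19) from 9 to 52. The counts of Glra1 in cortex and striatum, as few as 8 in a library, limit what can be said of it there. The cause of these differences was not tested.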
